A study of Mus musculus with 6 samples.

Results

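The nuclear-encoded subunits of respiratory complexes II to V were examined in mice at postnatal day 15, in RNA of the organ of Corti, which carries the hair cells of the inner ear. The members were all probe sets whose single gene symbol in the platform annotation was Sdha, Sdhb, Sdhc, Sdhd or Cyc1 or began with Uqcr, Cox4i, Cox5, Cox6, Cox7, Cox8 or Atp5. They came to 67 of the 35557 probe sets and 47 of the 19938 genes tested. Complex II had 4 of these genes, complex III 9, complex IV 17 and complex V 17. Another 3 probe sets were shared by Cox7c and a predicted gene, so Cox7c had no value of its own.

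The series had 6 arrays of total RNA. The knockout group (Pjvk-/-) held 3 samples and the wild-type group (Pjvk+/+, spelled Pjvk-+/+ in the labels) 3 samples, all on the strain background C57BL/6J-129/Sv. Pjvk encodes pejvakin, a protein that hearing depends on, and the comparison asks what its loss does to transcript levels there. The labels name no agent or sound exposure for these samples, and they do not say whether the samples came from separate animals. P-values therefore weigh a difference against a spread between samples that may be technical.

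Respiratory complexes lie in the inner mitochondrial membrane. Complex II passes electrons from succinate to ubiquinone, complex III passes them on to cytochrome c, complex IV hands them to oxygen, and complex V, the ATP synthase, uses the proton gradient to make ATP. Some subunits of complex IV exist as tissue isoforms, with one gene used in heart and skeletal muscle or in testis and another used in most tissues. Sensory hair cells and the ion-transporting tissues of the cochlea have a high demand for energy.

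As a check of the labels, the Pjvk probe set had log2 values of 4.42, 4.36 and 4.21 in knockout arrays, against 4.75, 5.06 and 4.96 in wild-type arrays (adjusted p = 0.105, limma). The values of each genotype did not overlap, but the probe set was dim (percentile 11.3 of level among genes tested). The deposited values had array medians between 6.66 and 6.69. The 15 hair cell markers averaged between 7.34 and 7.43 in knockout arrays and between 7.28 and 7.37 in wild-type arrays. The 14 supporting cell markers averaged between 8.94 and 9.02 in knockout arrays and between 8.90 and 8.94 in wild-type arrays. Of the hair cell markers 3 were higher and none lower at an unadjusted p under 0.05 (Tmc1, Ptprq and Ocm), with a median log2 fold change of 0.06. Without overlap, 5 of the 15 were higher (33.3%) and 1 lower (6.67%). Over all genes 5.74% were higher and 6.66% lower at that p, and 6.59% higher and 11.3% lower without overlap. Of the supporting cell markers 3 were higher and 3 lower at that p, with a median of 0.07 and Tectb at 0.45 (adjusted p = 0.0923, limma). Ocm, an outer hair cell marker, lay at percentile 95.1 of level and Gjb2, a supporting cell connexin, at percentile 99.2. Markers of neurons, Schwann cells and erythroid cells had median log2 fold changes of 0.00, -0.02 and -0.02. Among 8 markers of melanocytes, which the cochlea also holds, Dct was called (log2 fold change -1.86, adjusted p = 0.0115, limma), and the mean of the list ran from 6.54 to 6.72 in knockout arrays and from 6.83 to 6.98 in wild-type arrays. Of these 8 markers 5 had a lower and 3 a higher mean, and the median was -0.07. Besides Dct, the lower ones were Tyr at -0.31, Slc45a2 at -0.24, Mlana at -0.10 and Mitf at -0.05. The higher ones were Kit at 0.09, Pmel at 0.14 and Tyrp1 at 0.09. At an unadjusted p under 0.05, 2 of the 8 were lower and none higher, beside 6.66% and 5.74% of all genes. The part of any of these cell types in the results was not tested. Mean levels of 3 Y-linked genes ran from 7.39 to 7.58 in knockout arrays and from 7.65 to 8.05 in wild-type arrays, so the genotypes also differed in a signal of sex. Values with this level as a covariate are given in the closing section.

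Most subunit genes of complexes II to V lay slightly lower in the knockout, but none passed the test. Of 47 genes, 42 had a lower mean in the knockout, 4 a higher mean and 1 the same mean. Of all genes, 53.8% had a lower mean and 44.9% a higher one. None was called at an adjusted p under 0.05 (limma with Benjamini-Hochberg adjustment over all genes), beside a background of 0.0351% of genes called lower. At an unadjusted p under 0.05, 17 of the 47 were lower and none higher, against 6.66% of all genes lower and 5.74% higher. Without knockout replicate 3 the count was 11, without wild-type replicate 3 it was 10, with cyclic loess 9 and with a covariate for Y-linked signal 6. The groups did not overlap in 23 of the 47, all lower in the knockout. Over all genes 11.3% were lower and 6.59% higher without overlap. The median log2 fold change, knockout minus wild-type, was -0.09 over the 47 genes and -0.01 over all genes. In RNA of a whole tissue, fewer cells of a type and less RNA per cell cannot be told apart.

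**Figure D1:**
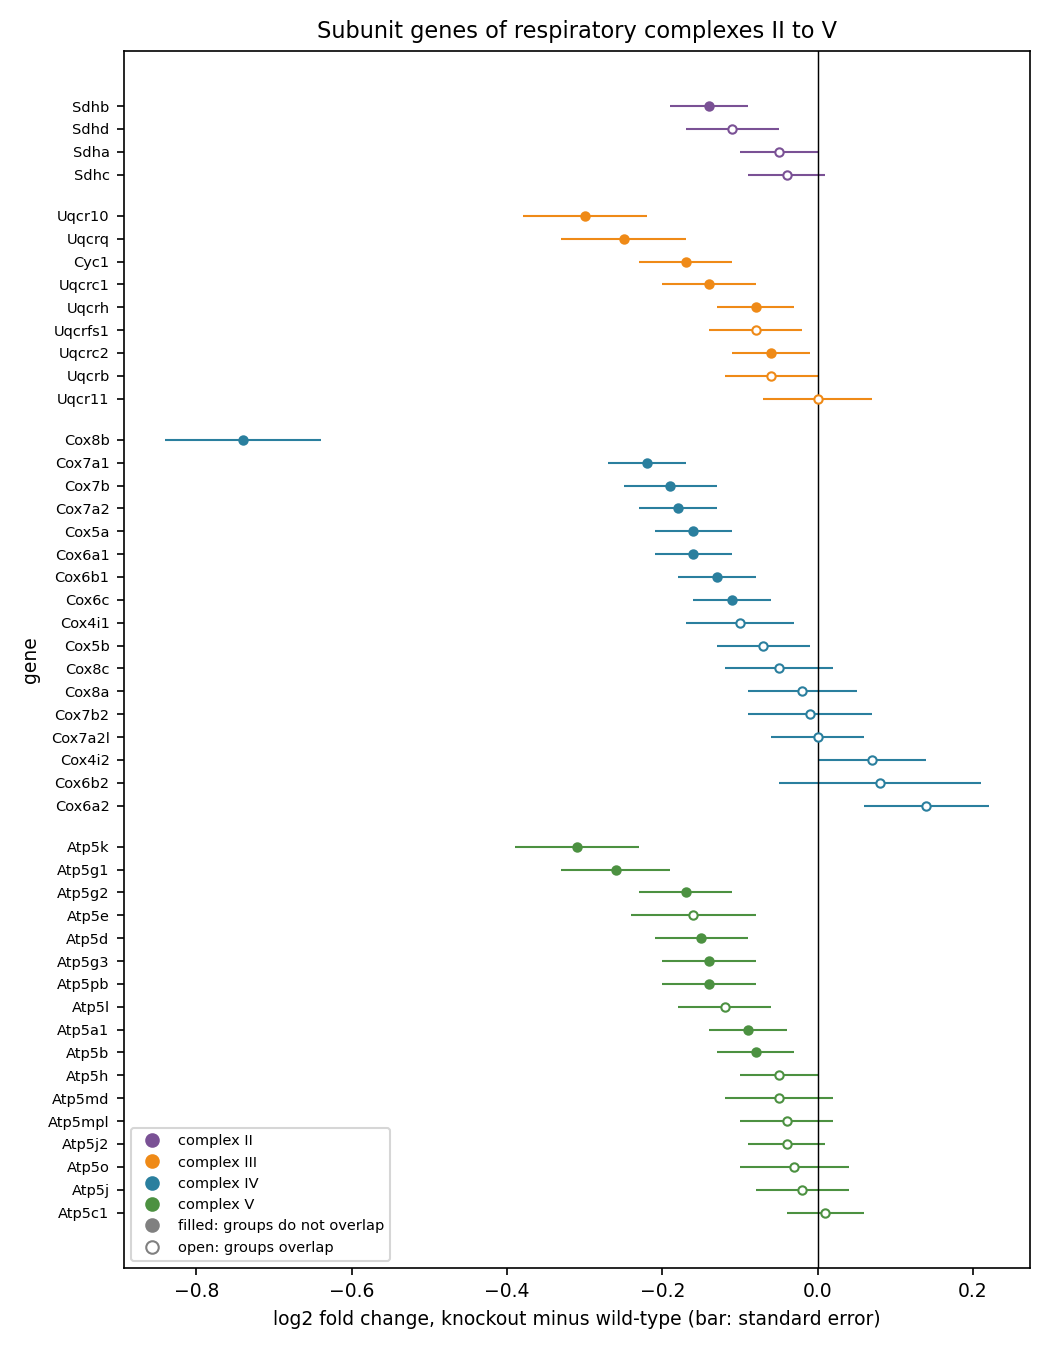
Log2 fold change of each of the 47 subunit genes, knockout minus wild-type, on the horizontal axis, with the standard error as a bar, grouped by complex. Filled points are genes whose knockout and wild-type values do not overlap. Most points lie left of 0, and Cox8b, at -0.74, lies farthest from it.

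The median log2 fold change was -0.08 in complex II, -0.08 in complex III, -0.10 in complex IV and -0.09 in complex V. Each median is a description of its list and was not tested. Taken per array, the median deviation of the 47 genes from their 6-array means was -0.04, -0.03 and -0.06 in knockout arrays, against 0.05, 0.05 and 0.08 in wild-type arrays. The arrays of each genotype stayed apart in every complex, with complex IV between -0.09 and -0.03 in knockout arrays and between 0.04 and 0.09 in wild-type arrays. Within genotypes this median had a pooled SD over arrays of 0.016 for the 47 genes. Over all genes tested the same median lay between -0.01 and 0.02, but this mixes genes of all levels. Other genes of the brightest level decile, which held 30 of the 47, had a median log2 fold change of -0.04. In the dim deciles 2, 3 and 4 it was 0.05, 0.07 and 0.05. Deviations per array were not taken for genes of matched level.

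**Figure D2:**
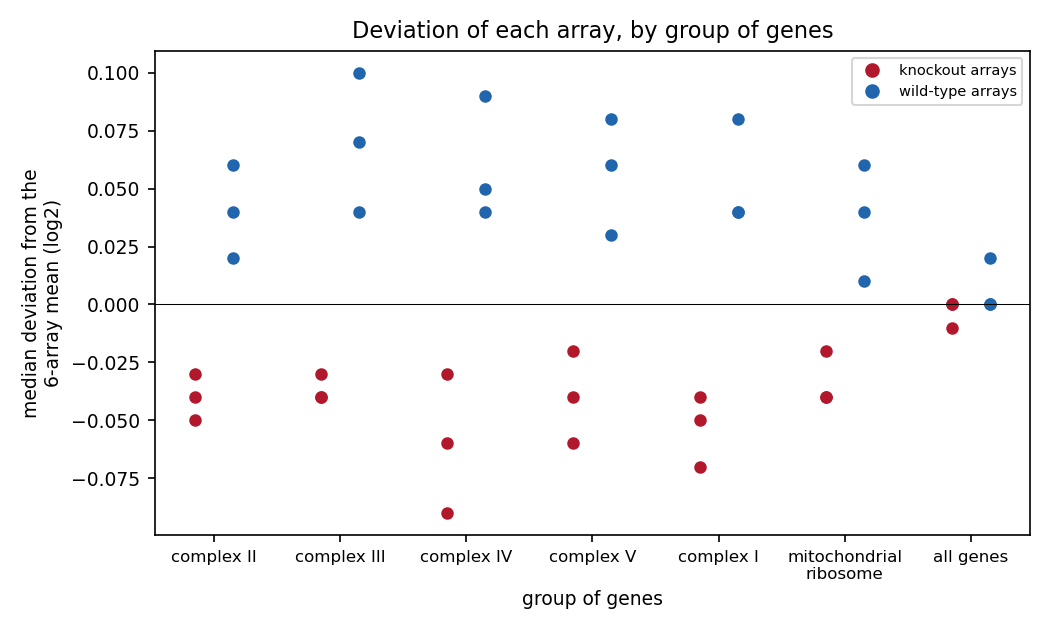
Median deviation of each array from the 6-array mean, in log2 units, for the genes of each complex, those picked for complex I by Nduf symbols, those of the mitochondrial ribosome and all genes. Each point is 1 array, knockout at the left of each pair. All knockout points of complexes II to V lie below 0 and all wild-type points above it, while over all genes both genotypes lie near 0. The group of all genes mixes bright and dim genes, and genes of matched level are not shown.

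In complex II, succinate dehydrogenase, 1 of 4 genes had groups that did not overlap. Sdhb, its iron-sulfur subunit, read 8.83, 8.87 and 8.87 in knockout arrays, against 8.98, 9.03 and 8.99 in wild-type arrays. This was the gene without overlap, and its log2 fold change was -0.14 (SE 0.05, adjusted p = 0.345, limma). Sdhd, a membrane anchor, read 9.35, 9.24 and 9.32 in knockout arrays, against 9.34, 9.39 and 9.50 in wild-type arrays, which overlap. Sdha, the flavoprotein that oxidizes succinate, read 10.81, 10.82 and 10.86 in knockout arrays, against 10.89, 10.85 and 10.89 in wild-type arrays. Sdhc, the other membrane anchor, read 9.36, 9.40 and 9.37 in knockout arrays, against 9.44, 9.36 and 9.45 in wild-type arrays. Both of these overlapped between the genotypes, with log2 fold changes of -0.05 and -0.04 (SE 0.05 each).

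In complex III, the largest differences were those of the small accessory subunits Uqcr10 and Uqcrq. Uqcr10, one of these, read 7.87, 8.09 and 7.81 in knockout arrays, against 8.21, 8.22 and 8.23 in wild-type arrays, a log2 fold change of -0.30 (SE 0.08, adjusted p = 0.24, limma). The wild-type values were nearly equal, and knockout replicate 2 was the closest to them. Uqcrq, another accessory subunit, read 8.12, 8.13 and 7.88 in knockout arrays, against 8.24, 8.31 and 8.32 in wild-type arrays, a log2 fold change of -0.25 (SE 0.08, adjusted p = 0.30, limma). Here knockout replicate 3 was the lowest and the groups did not overlap.

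The other subunits of complex III, whether electron-carrying, core or accessory, had smaller differences. Cyc1, the heme-bearing cytochrome of the complex, read 9.83, 9.92 and 9.82 in knockout arrays, against 9.97, 10.03 and 10.09 in wild-type arrays (log2 fold change -0.17, SE 0.06). Uqcrc1, a core protein on the matrix side, read 10.30, 10.26 and 10.16 in knockout arrays, against 10.37, 10.35 and 10.41 in wild-type arrays (log2 fold change -0.14, SE 0.06). The groups did not overlap in either gene. The second core protein Uqcrc2, the Rieske iron-sulfur protein Uqcrfs1, the hinge protein Uqcrh and the ubiquinone-site subunit Uqcrb had log2 fold changes between -0.08 and -0.06. Uqcr11, the smallest subunit, had equal means in its brightest probe set.

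In complex IV, cytochrome c oxidase, most widely expressed subunits lay slightly lower. All 10 of these genes had a lower mean in the knockout, Cox8a and Cox7a2l by 0.02 or less, and the groups did not overlap in 6. Their median log2 fold change was -0.12. Cox5a read 9.16, 9.15 and 9.14 in knockout arrays, against 9.30, 9.29 and 9.34 in wild-type arrays. Cox7a2 read 8.90, 8.87 and 8.85 in knockout arrays, against 9.08, 9.01 and 9.07 in wild-type arrays. Both genes were tightly grouped, with the gap between genotypes larger than the range within either, and their log2 fold changes were -0.16 and -0.18 (SE 0.05 each; adjusted p = 0.312 and 0.278, limma).

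Cox6a1 read 9.74, 9.77 and 9.72 in knockout arrays, against 9.87, 9.90 and 9.94 in wild-type arrays. Cox7b, which is X-linked, read 9.68, 9.82 and 9.72 in knockout arrays, against 9.90, 9.88 and 10 in wild-type arrays. Cox6b1, which helps hold the dimer together, read 10.13, 10.10 and 10.14 in knockout arrays, against 10.23, 10.26 and 10.28 in wild-type arrays. All 3 genes had non-overlapping groups and log2 fold changes from -0.19 to -0.13 in the probe sets used. The other probe set of Cox7b stood at -0.07 (SE 0.06) with overlap. Cox6c stood at -0.11 (SE 0.05) without overlap in the probe set used, and its other probe set at -0.04 (SE 0.05) with overlap. Cox5b, which binds zinc, stood at -0.07 (SE 0.06) with overlap. Cox4i1, a regulatory subunit, read 10, 10.14 and 9.99 in knockout arrays, against 10.03, 10.17 and 10.22 in wild-type arrays, so that its groups overlapped. Cox7a2l, which joins complexes III and IV into supercomplexes, had a log2 fold change that rounded to 0.00 (SE 0.06) in the probe set used. Its other probe set stood at -0.10 (SE 0.05), without overlap. With quantile normalization or cyclic loess the differences of Cox7a2l and Cox8a in the probe sets used had the other sign.

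The largest difference among the 47 genes was in Cox8b, the heart and muscle form of the smallest subunit of complex IV. Cox8b read 7.98, 8.03 and 7.70 in knockout arrays, against 8.74, 8.51 and 8.67 in wild-type arrays. Its means were 7.90 ± 0.18 in knockout arrays and 8.64 ± 0.12 in wild-type arrays (SD, n = 3 each), a value 1.67-fold lower in the knockout. The lowest wild-type value stood above the highest knockout value, and the gap between them was larger than the range within either genotype. The log2 fold change was -0.74 (SE 0.10) and its adjusted p of 0.0697 in limma missed the threshold. The gene ranked 13 of 19938 by unadjusted p. It was called when genes below the 25th percentile (adjusted p = 0.0369) or the median of mean level (0.0139) were left out, with centring on array medians (0.0444) and with an intensity trend and robust prior (0.00378), all in limma. It was not called with quantile normalization (adjusted p = 0.0654), cyclic loess (0.0616), the mean of all probe sets (0.0686) or all probe sets tested (0.0721), all in limma. Nor was it called with a replicate block (adjusted p = 0.186), a covariate for Y-linked signal (0.91) or any 1 array left out (0.116 to 0.29), all in limma.

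Cox8a, the widely expressed counterpart of Cox8b, read 9.41, 9.48 and 9.27 in knockout arrays, against 9.36, 9.40 and 9.47 in wild-type arrays. These values overlapped throughout, with a log2 fold change of -0.02 (SE 0.07). The difference of both isoforms, Cox8b minus Cox8a within each array, was -1.43, -1.45 and -1.57 in knockout arrays, against -0.62, -0.89 and -0.80 in wild-type arrays. The genotypes were apart by -0.71 in this measure. An exact two-sided permutation test over the 6 arrays gave p = 0.1, the smallest that 3 arrays against 3 allow, and 0.45 after Benjamini-Hochberg adjustment over the 9 isoform pairs compared. It measures unequal change of the pair of probe sets and not their relative amounts.

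**Figure D3:**
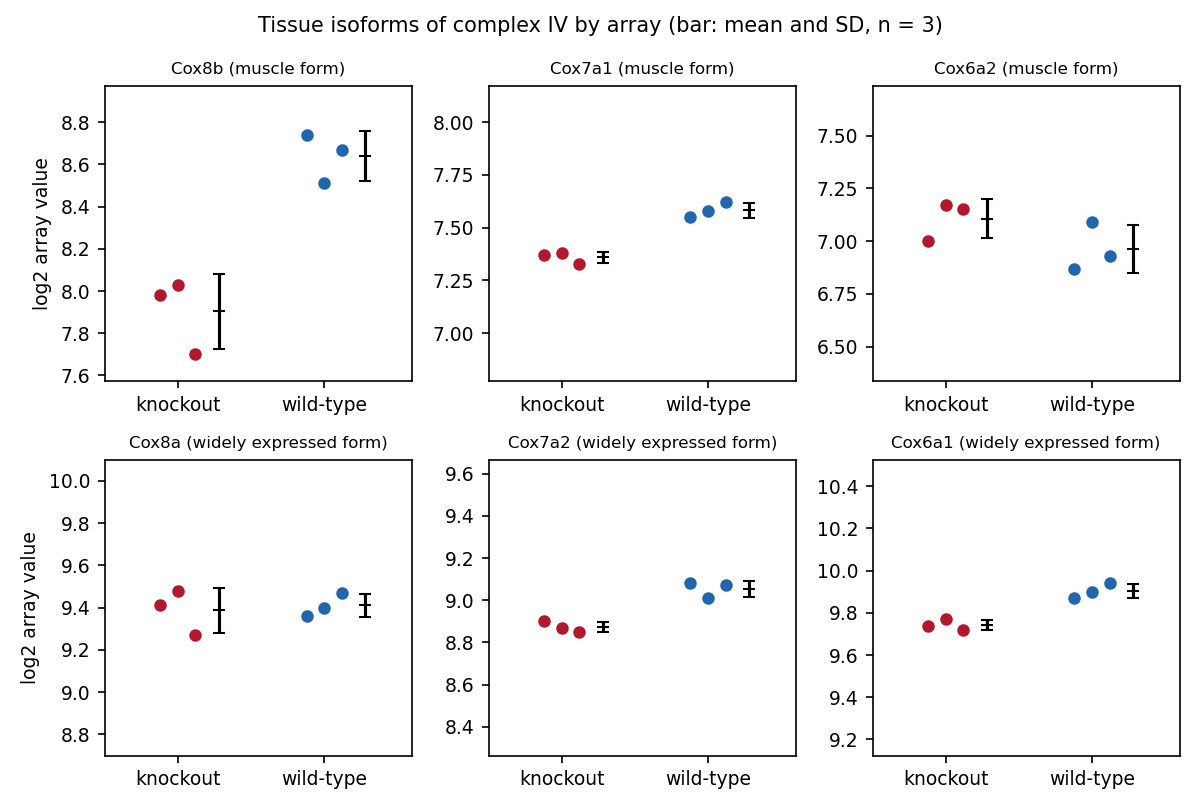
Log2 array values of muscle forms (upper row) and widely expressed forms (lower row) of subunits of complex IV. Each point is 1 array, with knockout at the left, and the bar gives the mean and SD of 3 arrays. Each panel spans the same range of log2 units. Cox8b shows the widest gap, Cox7a1, Cox7a2 and Cox6a1 are lower in all knockout arrays, and Cox8a and Cox6a2 overlap.

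The 3 heart and muscle forms differed in direction and size. Cox7a1, another of them, read 7.37, 7.38 and 7.33 in knockout arrays, against 7.55, 7.58 and 7.62 in wild-type arrays, a log2 fold change of -0.22 (SE 0.05, adjusted p = 0.209, limma). Cox7a1 and its partner Cox7a2 were lower by similar amounts, and their difference was apart by -0.04 between genotypes (exact permutation p = 0.4). Cox6a2, the third muscle form, read 7.0, 7.17 and 7.15 in knockout arrays, against 6.87, 7.09 and 6.93 in wild-type arrays. Its groups overlapped, with a log2 fold change of 0.14 (SE 0.08), the highest of the 47 genes. Against its partner Cox6a1 the isoform difference was apart by 0.30, with the 3 knockout arrays above the 3 wild-type arrays (exact permutation p = 0.1; 0.45 adjusted over the 9 pairs).

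Muscle tissue was measured beside these isoforms. Of 30 skeletal muscle markers, 21 had a higher mean in the knockout and 9 a lower one, and 10 were higher and 3 lower at an unadjusted p under 0.05. Over all genes 5.74% were higher and 6.66% lower at that p. Many of these markers lay in level deciles 4 and 5, counted from the dimmest. Of other genes there, 13.3% and 7.93% were higher and 3.66% and 5.67% lower at that p. The mean level of the list ran from 6.53 to 6.65 in knockout arrays and from 6.50 to 6.58 in wild-type arrays. Ttn, the sarcomere giant titin, was called, at a log2 fold change of -0.95 (SE 0.06, adjusted p = 0.00206, limma), and Neb, nebulin, stood at -0.47 and Pygm, muscle glycogen phosphorylase, at -0.41. These genes had the smallest unadjusted p of the list. The next by that measure were higher in the knockout, with Myh4 at 0.35, Tnnc2 at 0.39 and Ryr1 at 0.26. The part of muscle RNA in these isoform values was not tested.

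Cox8b and Cox7a1 are also abundant in brown fat, so markers of brown adipocytes were read. All 10 measured had a slightly higher mean in the knockout, none at an unadjusted p under 0.05. They are dim genes of level deciles 1 to 4, and of other genes 1097 of 1993 in decile 1, 1366 of 1996 in decile 2, 1430 of 1989 in decile 3 and 1345 of 1994 in decile 4 also had a higher mean. The mean level of the list ran from 5.38 to 5.43 in knockout arrays and from 5.27 to 5.37 in wild-type arrays. Ucp1, the uncoupling protein that defines brown fat, was dim at percentile 14.7 of level and read 4.99, 4.94 and 4.98 in knockout arrays, against 4.77, 5.09 and 5.0 in wild-type arrays. These values overlapped. The part of brown fat RNA in the isoform values was not tested.

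Forms known from testis, and the lung-type form of subunit 4, lay below the median level of all genes and overlapped between genotypes. Cox4i2 read 6.87, 6.82 and 6.96 in knockout arrays, against 6.74, 6.90 and 6.79 in wild-type arrays. Cox6b2 read 6.32, 6.41 and 6.65 in knockout arrays, against 6.10, 6.53 and 6.50 in wild-type arrays. Cox8c read 6.28, 6.27 and 6.47 in knockout arrays, against 6.42, 6.39 and 6.36 in wild-type arrays. Cox7b2 read 4.56, 4.55 and 4.50 in knockout arrays, against 4.41, 4.69 and 4.54 in wild-type arrays. Their log2 fold changes lay between -0.05 and 0.08 and the isoform differences against their partners gave exact permutation p-values from 0.3 to 0.9.

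The stretches before the starts of 4 of these genes are shown because Cox8b and Cox8a, forms of the same subunit, differed in fold change, and because Cox6a1 and Atp5k carry motifs of factors known to drive respiratory genes. Each is the 250 bases before the transcript start in RefSeq, build GRCm38.p6, on the strand of the gene. Cox8b lies at chr7:140900447-140900696 on the minus strand, Cox8a at chr19:7217617-7217866 on the minus strand, Cox6a1 at chr5:115348959-115349208 on the minus strand and Atp5k at chr5:108434400-108434649 on the minus strand. Capitals mark matches, on either strand, to the motif of the nuclear respiratory factor NRF1 (GCGC, any base, then TGCGC), to CCGGAAG, that of ETS factors such as GABP, and to GGGCGG, that of Sp1.
Cox8b: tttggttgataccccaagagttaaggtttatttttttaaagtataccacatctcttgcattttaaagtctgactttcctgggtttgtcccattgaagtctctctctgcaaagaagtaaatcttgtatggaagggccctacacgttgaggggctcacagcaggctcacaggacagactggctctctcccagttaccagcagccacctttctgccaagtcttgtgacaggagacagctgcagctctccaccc
Cox8a: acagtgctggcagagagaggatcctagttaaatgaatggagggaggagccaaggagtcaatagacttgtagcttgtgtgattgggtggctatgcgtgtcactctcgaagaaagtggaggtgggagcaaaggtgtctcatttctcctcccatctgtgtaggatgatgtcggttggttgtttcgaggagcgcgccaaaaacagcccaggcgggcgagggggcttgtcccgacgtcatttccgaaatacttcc
Cox6a1: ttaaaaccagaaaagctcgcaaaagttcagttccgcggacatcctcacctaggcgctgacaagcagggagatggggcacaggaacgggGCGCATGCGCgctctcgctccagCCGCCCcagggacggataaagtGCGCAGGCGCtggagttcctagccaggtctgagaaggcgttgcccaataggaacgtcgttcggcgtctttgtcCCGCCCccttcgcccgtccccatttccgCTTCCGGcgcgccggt
Atp5k: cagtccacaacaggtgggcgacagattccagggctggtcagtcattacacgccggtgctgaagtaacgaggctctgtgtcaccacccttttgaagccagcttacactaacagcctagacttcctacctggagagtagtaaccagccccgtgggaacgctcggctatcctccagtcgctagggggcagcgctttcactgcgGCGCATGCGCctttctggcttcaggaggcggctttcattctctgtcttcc

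No match to these letters was found in the windows of Cox8b and Cox8a, 5 in that of Cox6a1 and 1 in that of Atp5k. Promoter windows were at hand for 35 of the 47 genes, 38 windows in all. NRF1 letters were found in 18.4% of these windows, against 3.74% of all 32851 windows and 5.63% of those of genes on the array. ETS letters were found in 23.7%, against 6.91% and 9.41%, and Sp1 letters in 31.6%, against 32.7% and 45.5%. The member genes with NRF1 letters were Atp5c1, Atp5g2, Atp5h, Atp5k, Cox6a1, Sdha and Sdhd. Their median log2 fold change was -0.11, and it was -0.12 in members without these letters. For the ETS letters the medians were -0.11 with and -0.14 without. A match is a description of letters and does not show that a factor binds there.

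In complex V, the ATP synthase, the lowest log2 fold changes were those of Atp5k and Atp5g1, and no test compared the parts of the enzyme. Atp5k, an accessory subunit of the membrane part, read 8.22, 8.22 and 8.05 in knockout arrays, against 8.41, 8.41 and 8.61 in wild-type arrays. Its log2 fold change was -0.31 (SE 0.08, adjusted p = 0.215, limma), with no overlap. The genes Atp5g1, Atp5g2 and Atp5g3 encode the same mature c subunit of the rotor ring behind different import sequences.

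Atp5g1 read 9.36, 9.35 and 9.15 in knockout arrays, against 9.52, 9.51 and 9.61 in wild-type arrays. Atp5g2 read 9.60, 9.68 and 9.52 in knockout arrays, against 9.76, 9.72 and 9.84 in wild-type arrays. Atp5g3 read 10.95, 10.88 and 10.89 in knockout arrays, against 11.07, 11.08 and 10.98 in wild-type arrays. In the probe sets used, all 3 genes had non-overlapping groups, with log2 fold changes of -0.26 (SE 0.07), -0.17 (SE 0.06) and -0.14 (SE 0.06). Atp5g2 had 3 probe sets between -0.17 and -0.10, of which 2 did not overlap. Both probe sets of Atp5g1 did not overlap. The fold change of Atp5g1 was not told apart from that of Atp5g2 (isoform difference 0.09, exact permutation p = 0.2) or of Atp5g3 (0.12, p = 0.4, exact permutation).

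The median was -0.17 over the 3 ring genes, -0.09 over 5 genes of the F1 head and central stalk, -0.04 over 4 of the peripheral stalk and -0.05 over 5 other membrane subunits. Atp5d, a subunit of the central stalk, read 10.59, 10.57 and 10.45 in knockout arrays, against 10.69, 10.67 and 10.71 in wild-type arrays (log2 fold change -0.15, SE 0.06). Atp5a1 and Atp5b, which form the catalytic hexamer, had log2 fold changes of -0.09 and -0.08 (SE 0.05 each) with non-overlapping groups. Atp5c1, the rotating shaft, stood at 0.01, and its sign turned with centring on array medians. Of the peripheral stalk, Atp5pb stood at -0.14, Atp5h at -0.05, Atp5o at -0.03 and Atp5j at -0.02, and the last pair turned sign with quantile normalization and cyclic loess. The membrane subunits Atp5l, Atp5md, Atp5mpl and Atp5j2 lay between -0.12 and -0.04, all with overlapping groups in the probe set used, and the central stalk subunit Atp5e at -0.16 (SE 0.08) also overlapped.

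Signal level matters here, since 30 of the 47 genes belonged to the brightest decile of level. The median log2 fold change of these 30 was -0.09, against -0.04 in the other 1966 genes of that decile, of which 75.6% had a lower mean. Of the 47 members 89.4% had a lower mean in the knockout, against 70.9% of other genes weighted to the members' deciles. At an unadjusted p under 0.05, 36.2% of the members were lower, against 8.86% of other genes with the same weighting. Groups lay lower without overlap in 48.9% of the members, against 18.7% of other genes so weighted. After subtracting the median of its decile, a member had a median difference of -0.06, and 35 of 47 lay below that decile median. By complex, this median was -0.03 in complex II, -0.04 in complex III, -0.07 in complex IV and -0.05 in complex V. No test was made of these shares.

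**Figure D4:**
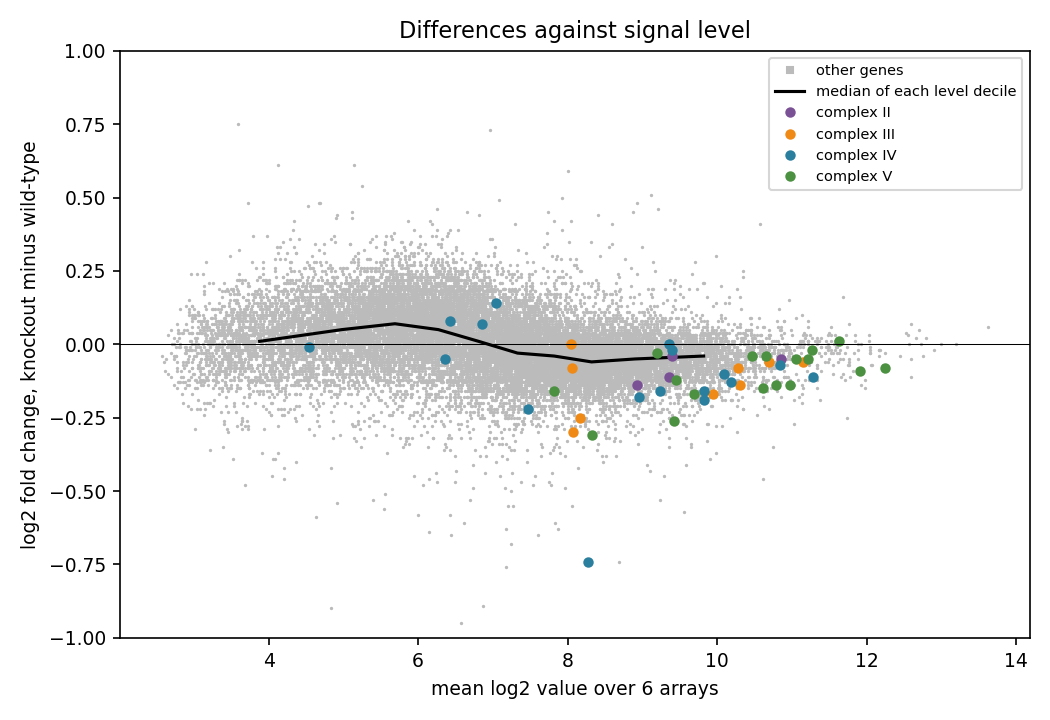
Log2 fold change, knockout minus wild-type, against the mean log2 value over 6 arrays, for the 47 subunit genes by complex and for the other genes in grey, of which 4 lie beyond the axis. The line joins the medians of the level deciles. Most subunit genes sit at the bright end, and 35 of 47 lie below the median of their decile.

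For 12 of the 47 genes, several probe sets were named, and the brightest was used. The 20 probe sets not used were all lower in the knockout, their median log2 fold change was -0.10, and 12 had non-overlapping groups. All 6 probe sets of Atp5l lay between -0.17 and -0.12, and 5 of them did not overlap. Uqcr11, Cox7b and Cox7a2l had probe sets that disagreed more. Uqcr11 had 0.00 in the probe set used and -0.18 (SE 0.06) in the other, which read 7.83, 7.90 and 7.82 in knockout arrays, against 8.0, 8.0 and 8.08 in wild-type arrays. Cox7b had -0.19 in the probe set used and -0.07, with overlap, in the other, and Cox7a2l had 0.00 and -0.10. Processed pseudogenes of many of these genes exist in the mouse genome, and cross-hybridization between copies was not assessed here.

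**Figure D5:**
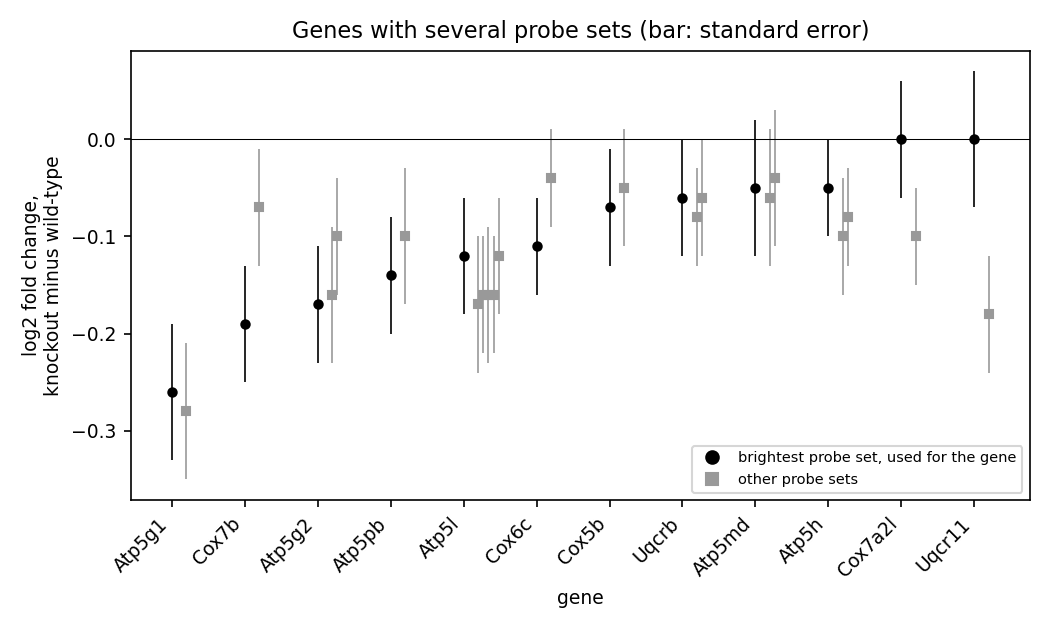
Log2 fold change, knockout minus wild-type, of every probe set of the 12 genes with several, with the standard error as a bar. Black circles are the brightest probe sets and grey squares the others. The probe sets of Atp5l lie close together, while those of Uqcr11, Cox7b and Cox7a2l differ.

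Among genes that build and serve these complexes, none passed the test. Their counts can be read beside the shares of all genes given above and those of genes of like level. Most assembly factors of complex IV lay in level deciles 6 to 9. Of other genes in these deciles, 59.5% to 79.0% had a lower mean. Between 9.04% and 10.6% were lower at an unadjusted p under 0.05, and 12.7% to 20.7% lower without overlap. No difference from the subunit genes was tested. Of 22 assembly factors of complex IV, 17 had a lower mean, 4 a higher and 1 the same, 3 of them lower at an unadjusted p under 0.05 and 18.2% lower without overlap, with a median of -0.09. Cmc2 stood at -0.28 (SE 0.07), Higd1a at -0.16 and Higd2a at -0.15. All 6 assembly factors of complex III and all 4 of complex V had a lower mean, with Uqcc1 at -0.21 (SE 0.07) and Tmem70 at -0.17 (SE 0.05). Of 4 factors of complex II, 2 had a lower mean, 1 a higher and 1 the same, all with overlapping groups and a median of -0.01. All 10 genes of cytochrome c, outer membrane channels, carriers and mitochondrial creatine kinases had a lower mean, but none at an unadjusted p under 0.05. Their median was -0.07, Vdac1 stood at -0.11, and the groups did not overlap in 5. Most of these are bright genes, and 75.6% of other genes of the brightest decile had a lower mean too. Of 16 citric acid cycle genes 15 had a lower mean, 2 at an unadjusted p under 0.05, with a median of -0.08 and Suclg1 at -0.15. Most of the 16 also belonged to the brightest decile.

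Among 18 regulators of mitochondrial biogenesis 16 had a lower mean, 5 at an unadjusted p under 0.05 (27.8%) and 7 without overlap (38.9%). Over all genes these shares were 53.8%, 6.66% and 11.3%. Most regulators lay in level deciles 6 to 10, where 59.5% to 79.0% of other genes had a lower mean. There 9.04% to 10.6% were lower at that p and 12.7% to 21.1% lower without overlap. No difference in these shares was tested. Esrrb, an orphan nuclear receptor mutated in a form of human deafness, read 6.43, 6.16 and 6.18 in knockout arrays, against 6.63, 6.65 and 6.89 in wild-type arrays (log2 fold change -0.47, SE 0.10, adjusted p = 0.177, limma). Esrrg, its relative, stood at -0.18 (SE 0.05), and the mitochondrial factor Tfb1m at -0.18 (SE 0.07). The groups did not overlap in these 3 genes.

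Complex I and the mitochondrial ribosome were read in the same fit. Of 35 genes picked for complex I by their Nduf symbols, 32 had a lower mean, 11 at an unadjusted p under 0.05 (31.4%) and 20 without overlap (57.1%). Their median was -0.10, and the list rests on symbols alone. Of 77 mitochondrial ribosomal protein genes, 63 had a lower mean, 11 lower (14.3%) and 1 higher at an unadjusted p under 0.05 and 18 lower without overlap (23.4%), and the median was -0.08. Over all genes 6.66% were lower at that p and 11.3% lower without overlap. Many of the ribosomal genes lay in level deciles 6, 7 and 8. Of other genes there, 9.04%, 10.4% and 10.6% were lower at that p and 12.7%, 16.5% and 20.7% lower without overlap. Many of the complex I genes lay in deciles 9 and 10, where these shares were 9.81% and 9.16%, and 20.6% and 21.1%. These lists share the arrays with complexes II to V, and no difference between the lists was tested.

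Of the 47 genes, 4 lie on chromosome 2 with Pjvk. Atp5g3, 25 protein-coding genes away in gene order, stood at -0.14, Atp5e at -0.16, Cox4i2 at 0.07 and Atp5c1 at 0.01. The genes with the largest differences, Cox8b, Atp5k and Uqcr10, lie on chromosomes 7, 5 and 11.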

How the data were processed

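Biotinylated cDNA from 100 ng of total RNA was hybridized to an Affymetrix mouse gene ST array, per the labels' protocols. The deposited values are log2 probe set values for 6 arrays, and they were made with the Affymetrix Expression Console, per the submitters' processing notes; no source used here gives the summarization and normalization. No further normalization was applied. Of 35557 probe sets, 21789 had 1 symbol in the platform annotation, 1621 several and 12147 were not listed; symbols were updated through gene identifiers on GRCm38.p6 (21698 matched, all 67 members among them). The brightest probe set stood for a gene, which left 19938 genes. The comparison of knockout with wild-type used lmFit and eBayes (limma 3.58.1, R 4.3.3, Benjamini-Hochberg adjustment over all genes, called at an adjusted p under 0.05). It left 4 residual degrees of freedom, to which the prior added 4.59, and the number of arrays limits the precision. Isoform pairs were compared by exact permutation. The limma step was tested on simulated data.

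The members and lists were chosen with earlier results of these data known. All members could be named, with values per array for tissue isoforms, their partners, the Atp5g genes and up to 4 members per complex with the smallest unadjusted p. Of each other list up to 3 were named by the same measure. Named beyond these were Gjb2, Ucp1, the muscle genes Myh4, Tnnc2 and Ryr1, and the other melanocyte markers. Other settings are given in the closing section. Same-numbered arrays of the genotypes did not deviate together.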

Additional observations from a re-analysis of the deposited data

How the results depend on the processing

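No member was called when any 1 array was left out, with quantile normalization, cyclic loess, the mean of all probe sets, all probe sets tested, the replicate block or the Y-linked covariate. With only genes above the 25th percentile or above the median of level, centring on array medians and the trend with robust prior 1 member, Cox8b, was called. Over all genes 7 were called lower and 0 higher by limma in the main comparison (1327 lower and 1144 higher at an unadjusted p under 0.05); the counts were 18 and 2 above the 25th percentile, 42 and 3 above the median level, 18 and 0 with centring on array medians, 100 and 12 with the trend, 1 and 0 with the replicate block, 0 and 0 with the Y-linked covariate, and 2 to 6 and 0 to 1 with 1 array left out. Same-numbered arrays share only a number, with correlations of their deviations between -0.009 and 0.076. The members lower at an unadjusted p under 0.05 numbered 17, against 9 with cyclic loess, 6 with the Y-linked covariate and 10 to 15 with 1 array left out (11 without knockout replicate 3, 10 without wild-type replicate 3); 0 to 1 were higher with 1 array left out.

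The median of the members ran from -0.11 to -0.07 with 1 array left out and was -0.11 above the median level, -0.07 with quantile normalization and with cyclic loess and -0.12 with the Y-linked covariate. Complex II was at -0.04 with cyclic loess, -0.11 with the covariate and -0.09 to -0.05 with 1 array left out. Complex III was at -0.05 with quantile normalization, -0.04 with cyclic loess and -0.12 to -0.08 with 1 array left out. Complex IV was at -0.15 above the median level, -0.07 with all probe sets, -0.16 with the covariate and -0.12 to -0.06 with 1 array left out. Complex V was at -0.07 with quantile normalization. Cox8b lay between -0.80 and -0.58 throughout, with -0.58 and an adjusted p of 0.91 (limma) under the covariate. All 3 knockout arrays had a lower Y-linked level than the wild-type arrays, so this covariate and the genotype cannot be fully told apart.

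Of 699 alternative values of the 47 genes, 28 in 11 genes had the other sign. With quantile normalization these were Atp5j at 0.01, Atp5o at 0.00, Cox7a2l at 0.03 and Cox8a at 0.01; with cyclic loess Atp5j and Atp5o at 0.01, Cox7a2l at 0.04, Cox8a at 0.02 and Sdhc at 0.00; with centring Atp5c1 at -0.01; with the covariate Atp5j at 0.03, Atp5l, Uqcrb and Uqcrc2 at 0.01 and Cox6b2 at -0.32. With 1 array left out Cox7a2l ran from -0.05 to 0.02, Atp5c1 from -0.01 to 0.02, Atp5j from -0.05 to 0.00, Atp5o from -0.09 to 0.02, Cox6b2 from -0.06 to 0.16, Cox7b2 from -0.08 to 0.06, Cox8a from -0.07 to 0.04 and the isoform difference of Cox8c and Cox8a from -0.15 to 0.06. The cause was not tested.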
